A study of Mus musculus with 30 samples.

Results

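The genes described here encode protein arginine methyltransferases and *Wdr77*, the partner of *Prmt5*. They were chosen by name as enzymes that can modify the glycine-arginine (GR) stretch of the methyl-CpG binding protein MBD2a. The rule names 9 genes, and 8 of them (*Prmt2*, *Prmt3*, *Carm1*, *Prmt5*, *Prmt6*, *Prmt7*, *Prmt8* and *Wdr77*) were analysed among the 25400 genes of the count table. *Prmt1* was not analysed here. All 8 passed the filter on low counts, after which 16582 genes were tested, and the smallest count of any member in any library was 15 reads, for *Prmt8*.

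Poly(A) RNA was sequenced from mouse embryonic stem cells (ESCs) after 8 days of differentiation towards neural progenitor cells (NPCs), in 24 libraries, 3 from each of 8 lines. The parental line was HA36CB1, a 129×C57BL/6 ESC line. WT cells carried intact *Mbd3*, and the other 7 lines all carried a CRISPR deletion of *Mbd3*, which encodes a subunit of the NuRD chromatin-remodelling complex. MBD3KO cells had no construct. The remaining lines were MBD3KO cells with a construct under the CAG promoter, placed by cassette exchange. MBD3a carried full-length MBD3a, and MBD3dMBD carried MBD3 without its methyl-CpG binding domain (MBD). MBD2aFL carried full-length MBD2a, MBD2a-GR carried MBD2a lacking the GR stretch, MBD2aR181C carried MBD2a whose MBD holds a single amino acid change, and MBD2t carried the truncated MBD2 isoform. The table's columns spell the point mutant MBD2aR64C, and it was matched to the label as the only point mutant. Libraries of a line came from separate clones, except that the 3 MBD2t libraries repeated 1 clone. The model fit pooled the spread over all 8 lines, but the MBD2t libraries hold no differences between clones. A change in MBD2t therefore cannot be told apart from a trait of that clone, whatever its p-value.

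Protein arginine methyltransferases transfer methyl groups from S-adenosylmethionine to arginine side chains, often within GR-rich or RGG-rich stretches of RNA-binding and chromatin proteins. PRMT5, in a complex with WDR77 (MEP50), forms symmetric dimethylarginine. CARM1, PRMT2, PRMT3, PRMT6 and PRMT8 belong to the class that forms asymmetric dimethylarginine, and PRMT7 forms monomethylarginine. PRMT8 is a membrane-anchored relative of PRMT1 known mainly from neurons of the brain.

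The targeted gene *Mbd3* was read at 154.7, 149.0 and 156.9 CPM (counts per 1000000 reads of a library, scaled by the TMM method) in WT and at 34.2, 73.8 and 69.1 CPM in MBD3KO (log2 fold change -1.38, SE 0.27, adjusted p = 0.000283, edgeR's quasi-likelihood test). Library totals ran from 27993858 to 49392806 counts, at which 3 reads correspond to 0.107 and 0.0607 CPM, a limit for counting error only. Libraries of 1 line always differed beyond counting error, since the chi-square averaged over genes ran from 3.32 within MBD2t to 288 within MBD2a-GR. The NPC label was held against 7 of 8 named NPC markers, among them *Pax6* and *Nes*, whose summed level was 748 to 913 CPM in WT, 65.0 to 106 CPM in MBD3KO, 71.9 to 156 CPM in MBD2aFL and 92.7 to 109 CPM in MBD2t. The other 4 lines lay between 469 and 931 CPM. None of these 7 markers was at 0 in any library. The 5 ESC markers summed to 20.6 to 107 CPM in WT and 219 to 671 CPM in MBD3KO. One MBD2a-GR library stood apart with 802 CPM summed over 5 endoderm markers, against 79.0 and 102 CPM in the rest of that line. These were also above the 35.9 to 53.9 CPM of WT, and MBD2aFL had 47.5 to 197 CPM.

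Across the 8 lines, *Prmt8* had the widest range of line means, 5.55 log2 units, against 0.13 to 0.74 for the other 7 genes. It fell 20.9-fold to 47.6-fold in MBD3KO, MBD2aFL and MBD2t against WT. Its libraries overlapped WT in MBD3a, MBD3dMBD and MBD2aR181C, and in MBD2a-GR only through the highest library. *Carm1*, *Prmt7* and, in MBD3KO and MBD2t, *Prmt5* fell by less than 2-fold, *Wdr77* rose in MBD2aFL and MBD2t, and *Prmt3* passed the test in none of the 15 comparisons. The plot of CPM by library shows each value.

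**Figure D1:**
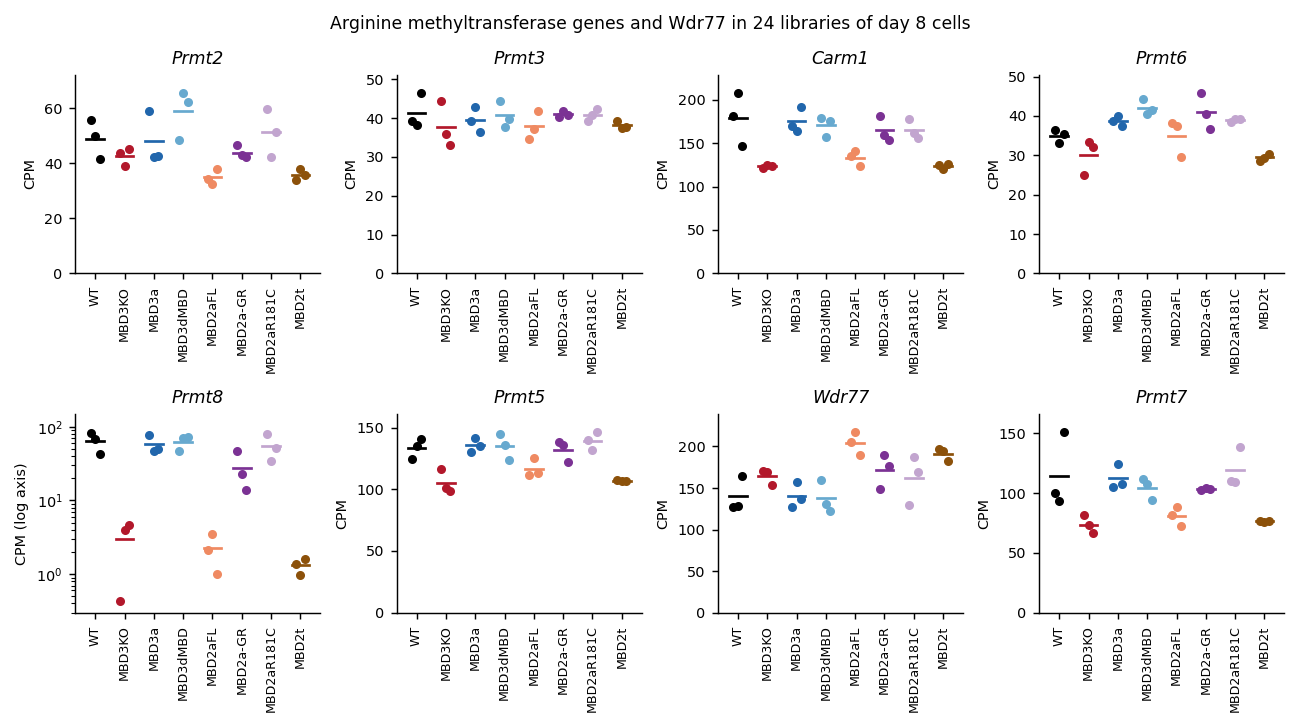
CPM (vertical axis, linear from 0, but logarithmic for *Prmt8*) of the 8 genes in each of 24 libraries (points), grouped by line on the horizontal axis, with the line mean as a bar. *Prmt8* lies between 0.429 and 4.63 CPM in all libraries of MBD3KO, MBD2aFL and MBD2t and at or above 13.8 CPM in all others, while *Prmt3* stays between 33.1 and 46.6 CPM throughout.

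MBD3KO was compared with WT to ask what is lost without MBD3. With edgeR's quasi-likelihood test and Benjamini-Hochberg adjustment over all genes, 1 of 8 members (*Prmt8*) had both an adjusted p under 0.05 and a log2 change of more than 1 in either direction, against 33.8% of all genes tested. On the adjusted p alone 4 members passed, all lower (*Prmt8*, *Carm1*, *Prmt7* and *Prmt5*), against 60.2% of all genes in either direction and 30.8% lower. The 3 libraries of each line did not overlap for these 4 members, as for 62.2% of all genes. The median absolute log2 fold change was 0.28 over the members and 0.64 over all genes.

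In MBD2aFL against WT 5 members passed the adjusted p (background 55.5%), with *Prmt8*, *Carm1*, *Prmt7* and *Prmt2* lower (background 28.1%) and *Wdr77* higher (27.4%). In MBD2t against WT 6 passed (background 59.8%), the same 5 and *Prmt5*, so that 5 were lower (31.1%) and 1 higher (28.7%). *Prmt8* was again the only member past the fold threshold in each, against backgrounds of 30.6% and 33.4%. These comparisons share the WT libraries. In MBD3a, MBD3dMBD, MBD2a-GR and MBD2aR181C against WT no member passed with edgeR's quasi-likelihood test or with DESeq2, and at an unadjusted p under 0.05 the counts were 0, 1, 2 and 0 of 8, against 1.77%, 7.16%, 26.6% and 3.95% of all genes. The share of all genes past the adjusted p in these 4 lines was 0%, 0.0181%, 8.55% and 0.0181%, and 5.16% in MBD2a-GR with the fold threshold.

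**Figure D2:**
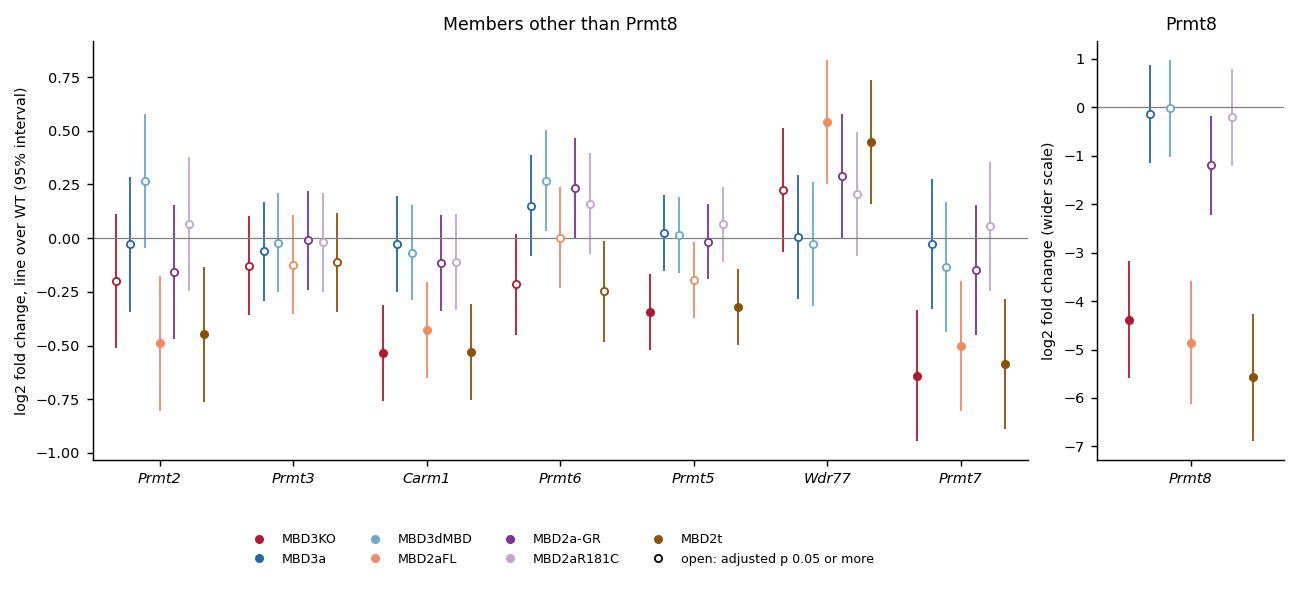
Log2 fold change of each line over WT with its 95% interval (vertical axis) for 7 members (left) and for *Prmt8* on a wider scale (right), coloured by line, with filled points for an adjusted p under 0.05. In MBD3KO, MBD2aFL and MBD2t the points of *Carm1* and *Prmt7* are filled below 0, and those of *Wdr77* are filled above 0 in MBD2aFL and MBD2t but open in MBD3KO.

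*Prmt8* (ENSMUSG00000030350.8, chr6:127639029-127719490 on the minus strand of NCBIM37, mm9) was read at 81.3, 67.3 and 43.1 CPM in WT and at 0.429, 3.96 and 4.63 CPM in MBD3KO. It was read at 2.16, 3.53 and 0.994 CPM in MBD2aFL and at 1.37, 0.981 and 1.62 CPM in MBD2t. All libraries of these 3 lines lay below all libraries of the other 5, and MBD3KO, MBD2aFL and MBD2t overlapped each other. Against WT its log2 fold change was -4.39 (SE 0.58, adjusted p = 4.88e-06) in MBD3KO, -4.86 (SE 0.60, adjusted p = 4.94e-06) in MBD2aFL and -5.57 (SE 0.63, adjusted p = 1.05e-06) in MBD2t, all from edgeR's quasi-likelihood test. These are falls of 20.9-fold, 29.0-fold and 47.6-fold.

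The lines with MBD3 constructs had high *Prmt8* levels, at 77.0, 47.2 and 49.7 CPM in MBD3a and 46.9, 69.9 and 71.7 CPM in MBD3dMBD, and both overlapped WT. MBD2aR181C had 80.1, 34.5 and 51.7 CPM and overlapped WT as well. The intervals of the log2 fold change against WT were -1.15 to 0.86 in MBD3a, -1.03 to 0.98 in MBD3dMBD and -1.21 to 0.80 in MBD2aR181C. A 2-fold fall of *Prmt8* lay within each interval, and a 2-fold rise lay just outside. Against MBD3KO the same 3 lines were 18.97-fold, 20.6-fold and 18.2-fold higher (adjusted p = 7.78e-06, 4.04e-06 and 8.40e-06, edgeR's quasi-likelihood test).

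MBD2a-GR, which lacks the stretch these enzymes can modify, had a mean between the low and the other lines, with *Prmt8* at 47.1, 22.9 and 13.8 CPM. The highest of the 3 libraries reached into the WT range and all of them lay above every MBD3KO and MBD2aFL library. *Prmt8* was 9.14-fold higher than in MBD3KO (adjusted p = 0.000152) and its log2 fold change against WT was -1.19 (SE 0.49, interval -2.22 to -0.17, adjusted p = 0.127). Without the MBD2a-GR library at 47.1 CPM, *Prmt8* passed both thresholds against WT. The MBD2a-GR library at 13.8 CPM was the one that stood apart with 802 CPM of endoderm markers, and its ESC marker sum was 286 CPM. MBD2aFL was 12.7-fold lower in *Prmt8* than MBD2a-GR (log2 fold change -3.66, SE 0.59, adjusted p = 0.000169) and 25.2-fold lower than MBD2aR181C (log2 fold change -4.65, SE 0.60, adjusted p = 9.35e-06). *Mbd2* itself was read at 87.22, 86.30 and 67.01 CPM in MBD2aFL, at 280, 451 and 700 CPM in MBD2a-GR and at 253, 256 and 325 CPM in MBD2aR181C, so the compared lines also differed in their level of *Mbd2* reads. MBD3KO, with no construct, had 65.3, 64.2 and 70.9 CPM, which overlapped MBD2aFL (log2 fold change of MBD2aFL over MBD3KO 0.26, adjusted p = 0.508), so added *Mbd2* reads were not detected in the line labelled MBD2aFL. MBD2t had 335, 356 and 340 CPM. The part of the difference in *Mbd2* reads in these results was not tested. By western blot of the ESC lines, the paper reports equal protein levels of MBD2a with and without the GR stretch. That is another measure and stage than these reads.

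Markers of neurons and NPCs moved with *Prmt8*. The summed level of 5 neuron markers (*Tubb3*, *Dcx*, *Map2*, *Stmn2* and *Rbfox3*) was 1040 to 2554 CPM in WT, 100 to 204 CPM in MBD3KO, 52.5 to 158 CPM in MBD2aFL and 131 to 142 CPM in MBD2t, and all 5 were lower in these lines than in WT. In MBD2a-GR it was 1640, 907 and 558 CPM, in the same order over the libraries as *Prmt8*. None of the 5 was at 0 in any library. ESC and trophoblast markers moved in the opposite direction to *Prmt8*. The ESC marker sum was 256 to 456 CPM in MBD2aFL and 378 to 464 CPM in MBD2t, with all 5 markers higher than in WT there and in MBD3KO. The sum of 4 trophoblast markers was 3.17 to 7.21 CPM in WT, 125 to 177 CPM in MBD3KO, 58.6 to 80.4 CPM in MBD2t and 6.79 to 32.0 CPM in MBD2aFL, and past both thresholds were 4 of 4 in MBD3KO and MBD2t and 1 of 4 in MBD2aFL. In bulk RNA fewer cells of a type and less RNA per cell cannot be told apart, and the part of these markers in the change of *Prmt8* was not tested.

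As a percentage of the neuron marker sum, *Prmt8* amounted to 3.18 to 4.14% of that sum in WT and to 0.427 to 2.47% in MBD3KO, 1.85 to 2.23% in MBD2aFL and 0.747 to 1.14% in MBD2t, and these 3 lines did not overlap WT. The percentage was 3.16 to 3.64 in MBD3a, 2.36 to 2.54 in MBD3dMBD, 2.48 to 2.87 in MBD2a-GR and 2.63 to 3.00 in MBD2aR181C. The last 3 of these lines also lay below the lowest WT library, and no test was made of this percentage.

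**Figure D3:**
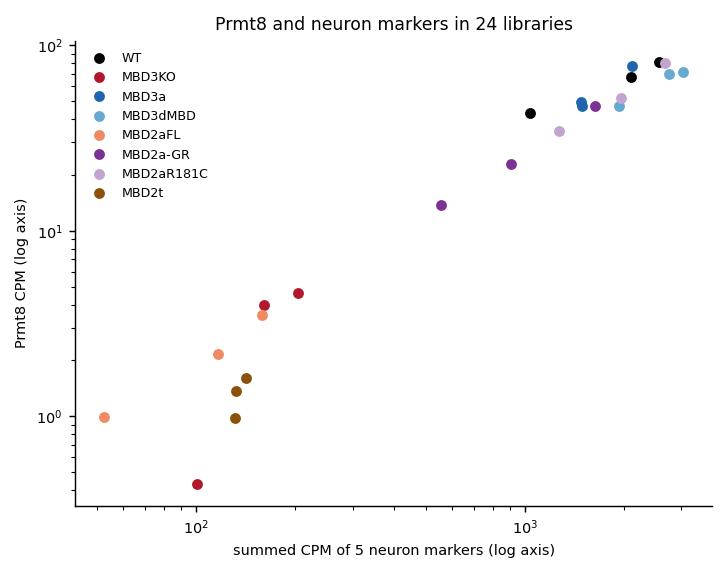
*Prmt8* CPM (vertical log axis) against the summed CPM of 5 neuron markers (horizontal log axis) in the 24 libraries, coloured by line. The 9 libraries of MBD3KO, MBD2aFL and MBD2t lie at the lower left, at most 204 CPM of marker sum and 4.63 CPM of *Prmt8*, 2 MBD2a-GR libraries lie between them and the other lines, and the third lies among the other lines.

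Over the 24 libraries, the 3 genes whose log2 CPM was most like *Prmt8* among all tested genes were *Hoxc6*, a Hox transcription factor gene (Pearson's r = 0.993), *Carmil3* (r = 0.992) and *Lrrn1*, a leucine-rich repeat membrane protein gene (r = 0.992). The points share lines and libraries, and with 9 libraries far below the others the coefficients describe that split above all.

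*Prmt5* and *Wdr77*, whose proteins act together, did not move together. *Prmt5* (ENSMUSG00000023110.5, chr14:55126024-55136362, minus strand, mm9) was read at 124.7, 134.8 and 140.8 CPM in WT, at 116.7, 100.7 and 98.5 CPM in MBD3KO and at 107.2, 107.0 and 106.4 CPM in MBD2t. Every MBD3KO and MBD2t library lay below every WT library. The log2 fold changes against WT were -0.34 (SE 0.08, adjusted p = 0.00191) in MBD3KO and -0.32 (SE 0.08, adjusted p = 0.00309) in MBD2t by edgeR's quasi-likelihood test, and -0.20 (adjusted p = 0.0569) in MBD2aFL, whose libraries at 111.2, 124.9 and 113.5 CPM overlapped WT. In MBD3a, MBD3dMBD, MBD2a-GR and MBD2aR181C *Prmt5* lay between 122.1 and 146.5 CPM and passed the test as higher than MBD3KO in each, by 1.25-fold to 1.32-fold. The call in MBD3dMBD was lost with upper quartile (adjusted p = 0.0549) and library size scaling (adjusted p = 0.0701). That in MBD2a-GR was lost with the same scalings (adjusted p = 0.0644 and 0.0546) and in the fit of the 2 lines only (adjusted p = 0.0901).

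*Wdr77* (ENSMUSG00000000561.8, chr3:105762287-105787518, plus strand, mm9) was read at 127.3, 128.9 and 165.1 CPM in WT, at 205.3, 217.5 and 190.1 CPM in MBD2aFL and at 197.1, 194.0 and 182.8 CPM in MBD2t. All 6 libraries of MBD2aFL and MBD2t lay above the highest WT library. Its log2 fold change against WT was 0.54 (SE 0.14, adjusted p = 0.00286) in MBD2aFL and 0.45 (SE 0.14, adjusted p = 0.00932) in MBD2t, and both stayed past the test under each scaling. In MBD3KO *Wdr77* had 170.4, 168.7 and 153.2 CPM, overlapping WT (log2 fold change 0.23, adjusted p = 0.166). MBD2aFL and MBD2t were not called different from MBD3KO (log2 fold changes 0.32 and 0.22, adjusted p = 0.174 and 1.00). *Wdr77* shares 1023 exonic bases with *Ovgp1* on its own strand and 337 with *Atp5pb* on the other, and over all libraries *Ovgp1* was read at no more than 5.3 CPM but *Atp5pb* at 225 to 352 CPM, above *Wdr77* in every library. The strand setting of the counting is not given in the sources used here.

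The ratio of reads shows the same from within each library, where scaling plays no part. *Prmt5* had between 0.853 and 1.05 reads for each *Wdr77* read in WT, but between 0.597 and 0.685 in MBD3KO, 0.542 and 0.597 in MBD2aFL and 0.544 and 0.582 in MBD2t. These 3 lines did not overlap WT, while MBD3a (0.896 to 1.02), MBD3dMBD (0.907 to 1.04), MBD2a-GR (0.691 to 0.930) and MBD2aR181C (0.706 to 1.08) did. The log2 ratio differed from WT by -0.58 in MBD3KO, -0.74 in MBD2aFL and -0.77 in MBD2t, each with p = 0.1 in an exact two-sided permutation test, the smallest p that 3 against 3 libraries allow, and with an adjusted p of 0.233 over the 7 lines. For MBD3a, MBD3dMBD, MBD2a-GR and MBD2aR181C the differences were 0.02, 0.04, -0.31 and -0.14, with exact permutation p of 0.9, 0.7, 0.2 and 0.7. No difference passed the adjusted test in this design.

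**Figure D4:**
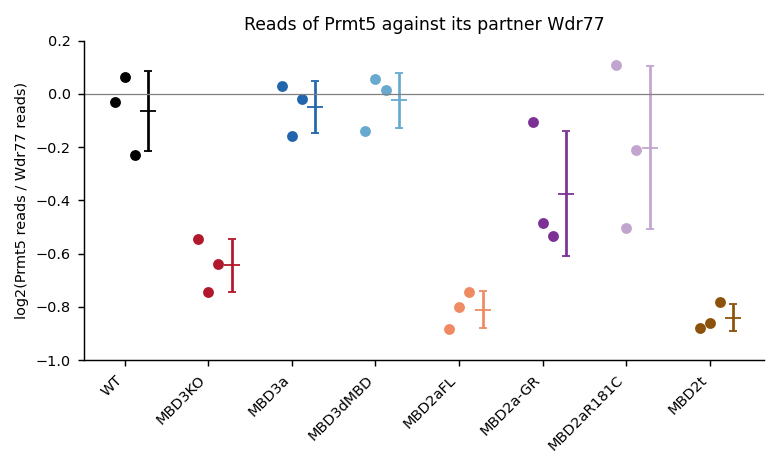
Log2 ratio of *Prmt5* reads to *Wdr77* reads (vertical axis) in each library (points) of the 8 lines (horizontal axis), with the mean and SD of 3 libraries beside them. MBD3KO, MBD2aFL and MBD2t have means of -0.64, -0.81 and -0.84 and lie below all WT libraries, and MBD2a-GR and MBD2aR181C spread over both ranges.

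*Prmt7* (ENSMUSG00000060098.5, chr8:108734836-108776694, plus strand, mm9) was read at 99.8, 93.0 and 151.2 CPM in WT and at 81.3, 73.1 and 66.4 CPM in MBD3KO. It had 81.5, 88.6 and 72.6 CPM in MBD2aFL and 76.7, 76.0 and 76.3 CPM in MBD2t. All 9 of these libraries lay below the lowest WT library, and 1 WT library lay far above the other two. The log2 fold changes against WT were -0.64 (SE 0.14, adjusted p = 0.000932) in MBD3KO, -0.50 (SE 0.15, adjusted p = 0.00652) in MBD2aFL and -0.59 (SE 0.15, adjusted p = 0.00186) in MBD2t by edgeR's quasi-likelihood test. Without the WT library at 151.2 CPM the log2 fold changes were -0.39 in MBD3KO (adjusted p = 0.00751), -0.25 in MBD2aFL (adjusted p = 0.0712) and -0.34 in MBD2t (adjusted p = 0.0177). The 4 other construct lines lay between 94.4 and 138 CPM and were 1.41-fold to 1.62-fold higher than MBD3KO, all past the adjusted p. The call in MBD2a-GR was lost without the MBD3KO library at 66.4 CPM (adjusted p = 0.0547) and with upper quartile scaling (adjusted p = 0.0610). That in MBD3dMBD was lost with upper quartile (adjusted p = 0.0590) and library size scaling (adjusted p = 0.0546).

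Among pairs of members, *Prmt5* and *Prmt7* had the highest correlation of log2 CPM over the 24 libraries (r = 0.909) and *Prmt2* and *Wdr77* the lowest (r = -0.881). These coefficients describe differences between lines as well as between libraries of a line. The summed level of 7 proliferation markers, including *Mki67*, was 1954 to 2409 CPM in WT and 1536 to 2153 CPM in MBD3KO, and 2 of the 7 were lower in MBD3KO. Their part in the changes of *Prmt5* and *Prmt7* was not tested.

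The bases just before the start of *Prmt5* and of *Prmt7* are shown because these 2 genes had the highest correlation of any pair of members. A further reason is that MBD2 binds the dinucleotide CG when it is methylated. The paper states that the MBD of MBD3 lacks residues needed for this. The sequences are from RefSeq on GRCm38.p6 (another build than that of the counts), 5′ to 3′ on the gene's strand, at chr14:54517471-54517695 (minus) and chr8:106210934-106211053 (plus), and end at the last base before the start. Capitals mark CG, and bases that another annotated gene reaches into were left out.
Prmt5: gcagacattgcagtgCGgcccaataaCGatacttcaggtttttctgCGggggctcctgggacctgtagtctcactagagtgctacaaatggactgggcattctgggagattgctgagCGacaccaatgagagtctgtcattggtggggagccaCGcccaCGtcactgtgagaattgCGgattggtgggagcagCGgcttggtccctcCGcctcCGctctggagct
Prmt7: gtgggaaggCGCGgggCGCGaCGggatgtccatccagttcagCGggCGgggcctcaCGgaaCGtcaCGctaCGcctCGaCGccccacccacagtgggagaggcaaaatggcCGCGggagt

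The *Prmt5* stretch of 225 bases holds 10 CG and the *Prmt7* stretch of 120 bases holds 15. Over the full 250 bases before the start, 7 of the 8 members had an entry in the RefSeq promoter table. *Prmt8* held 37 CG in either of its 2 entries and *Prmt7* held 35, numbers reached by 2.20% and 2.97% of the 32851 windows of that length. *Wdr77* held 19, *Prmt3* 17, *Prmt2* 14 and *Prmt5* and *Prmt6* 13 each. CG reads the same on both strands, 92.1% of all windows hold at least 1, and the median window holds 6. The *Prmt8* windows lie inside a longer annotated *Prmt8* transcript and are not shown. DNA methylation was not analysed here.

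*Carm1* (ENSMUSG00000032185.8, chr9:21351338-21393931, plus strand, mm9), which methylates histone H3 and coactivators, was read at 181.0, 208.3 and 146.7 CPM in WT and at 121.4, 124.7 and 123.8 CPM in MBD3KO. It had 134.8, 141.1 and 123.2 CPM in MBD2aFL and 124.8, 120.1 and 126.4 CPM in MBD2t. The libraries of these 3 lines lay within a narrow band below every WT library. The log2 fold changes against WT were -0.54 (SE 0.11, adjusted p = 0.000299) in MBD3KO, -0.43 (SE 0.11, adjusted p = 0.00251) in MBD2aFL and -0.53 (SE 0.11, adjusted p = 0.000336) in MBD2t. The 4 other construct lines lay between 153.5 and 192 CPM and were 1.34-fold to 1.42-fold higher than MBD3KO (adjusted p at most 0.00350, edgeR's quasi-likelihood test). The call in MBD2a-GR was lost without its library at 181.5 CPM (adjusted p = 0.0568).

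*Carm1* shares 779 exonic bases with *Yipf2* on the opposite strand, again with the strand setting not known. *Yipf2* was read at 9.9 to 12.6 CPM in WT and 23.96 to 26.50 CPM in MBD3KO, the opposite direction to *Carm1*. Of the 8 members, none had a 50-base stretch of its protein-coding transcripts in common with a protein-coding transcript of another gene, *Prmt1* included; the exon overlaps given here count exons of all annotated transcripts, coding or not.

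*Prmt2* (ENSMUSG00000020230.7, chr10:75669967-75700610, minus strand, mm9), known as a coactivator of nuclear receptors, was read at 55.7, 50.0 and 41.4 CPM in WT, 34.4, 32.3 and 38.0 CPM in MBD2aFL and 34.1, 37.9 and 35.8 CPM in MBD2t. The MBD2aFL and MBD2t libraries lay below the lowest WT library, and the 43.8, 39.2 and 45.1 CPM of MBD3KO overlapped WT. The log2 fold change against WT was -0.49 (SE 0.15, adjusted p = 0.00991) in MBD2aFL and -0.45 (SE 0.15, adjusted p = 0.0149) in MBD2t. In MBD3KO it was -0.20 (adjusted p = 0.261). Both calls were lost without the WT library at 55.7 CPM (adjusted p = 0.0654 and 0.0884) and when libraries were scaled by their size alone (adjusted p = 0.0577 and 0.0931), and that in MBD2t also without the MBD2t library at 34.1 CPM (adjusted p = 0.0590). Of the construct lines, MBD3dMBD alone was past the adjusted p against MBD3KO (log2 fold change 0.46, adjusted p = 0.0114), a call lost in 5 of 14 alternatives, among them those without the MBD3KO library at 39.2 CPM or the MBD3dMBD library at 65.8 or 62.5 CPM (adjusted p = 0.0775, 0.0814 and 0.0754).

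The genes most like *Prmt2* over the 24 libraries were *Rab14* (r = 0.936), *Carhsp1* (r = 0.918) and *Nrgn* (r = 0.917), and those most like *Prmt7* were *Hnrnpc* (r = 0.973), *Actl6a* (r = 0.971) and *Fkbp3* (r = 0.965). *Rab14* encodes a vesicle transport GTPase, *Nrgn* a postsynaptic calmodulin-binding protein, *Hnrnpc* an RNA-binding protein and *Actl6a* a subunit of BAF remodelling complexes.

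*Prmt6* (ENSMUSG00000049300.8, chr3:110049027-110053916, minus strand, mm9), which methylates arginine 2 of histone H3, was read at 36.5, 33.1 and 35.3 CPM in WT and 24.9, 33.3 and 32.0 CPM in MBD3KO. These overlapped, and *Prmt6* passed in no comparison with WT. It was higher than in MBD3KO in MBD3a (1.29-fold, adjusted p = 0.00977), MBD3dMBD (1.40-fold, adjusted p = 0.00108), MBD2a-GR (1.36-fold, adjusted p = 0.00323) and MBD2aR181C (1.30-fold, adjusted p = 0.00846), by edgeR's quasi-likelihood test. The calls in MBD3a and MBD2aR181C were each lost in 4 of 14 alternatives, including without the MBD3KO library at 24.9 CPM (adjusted p = 0.0670 and 0.0592). That in MBD2a-GR was lost in 2, with library size scaling (adjusted p = 0.0520) and in the fit of the 2 lines only (adjusted p = 0.108). That in MBD3dMBD was lost in 1, with library size scaling (adjusted p = 0.0509). All 4 lines lay wholly above WT, at 37.5 to 40.1 CPM in MBD3a, 40.5 to 44.3 in MBD3dMBD, 36.8 to 45.9 in MBD2a-GR and 38.5 to 39.3 in MBD2aR181C, with adjusted p of 1, 0.668, 0.197 and 0.999 against WT.

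*Prmt3* (ENSMUSG00000030505.9, chr7:57033716-57113635, plus strand, mm9), a cytosolic enzyme that methylates the ribosomal protein RPS2, had 39.1, 38.2 and 46.6 CPM in WT and 44.5, 35.8 and 33.1 CPM in MBD3KO. Its line means lay between 37.8 and 41.3 CPM, and every line overlapped its neighbour in the order of means. The widest interval of its log2 fold change against MBD3KO or WT was within -0.36 to 0.35. *Prmt9*, the family member outside the rule, was read at 34.8 to 38.4 CPM in WT and 30.7 to 33.4 CPM in MBD3KO (adjusted p = 0.0742) and was lower than WT in MBD2aFL (log2 fold change -0.34, adjusted p = 0.00342) and MBD2t (log2 fold change -0.23, adjusted p = 0.0303).

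Against MBD3KO, 5 members passed the adjusted p in MBD3a (background 57.8%), 6 in MBD3dMBD (62%), 5 in MBD2a-GR (46.9%) and 5 in MBD2aR181C (56.7%), all higher, for which the backgrounds were 29.5%, 31.6%, 25.4% and 29.8%. In each of the 4 lines *Carm1*, *Prmt5*, *Prmt6*, *Prmt7* and *Prmt8* passed, and *Prmt8* alone passed the fold threshold, against 32.4%, 35.9%, 25.2% and 31.1% of all genes. These comparisons share the MBD3KO libraries. In MBD2aFL and MBD2t no member passed against MBD3KO with edgeR's quasi-likelihood test (background 8.77% and 0.0302%, and 5.25% and 0.0241% with the fold threshold) or DESeq2, and at an unadjusted p under 0.05 the counts were 1 and 0 (background 22.6% and 3.44%).

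MBD2aFL against MBD2a-GR compares constructs with and without the GR stretch, but these lines also differed in *Mbd2* reads and NPC marker levels. The part of the GR stretch cannot be told apart from these differences. In this comparison 2 members passed the adjusted p (background 34.7%), *Prmt8* and *Carm1*, both lower in MBD2aFL (background 18.9%). *Prmt8* also passed the fold threshold (background 18.6%). *Carm1* was lower by 0.31 on the log2 scale (log2 fold change -0.31, SE 0.11, adjusted p = 0.0315), a call that held in 2 of 14 alternatives. Without the MBD2a-GR library with high endoderm markers, 4 members passed (*Prmt8*, *Carm1*, *Prmt5* and *Prmt6*), and without any other library of the 2 lines only *Prmt8* did. In MBD2aFL against MBD2aR181C 5 members passed, all lower (background 50.9%, and 26.6% lower): *Prmt8*, *Prmt7* (log2 fold change -0.56, adjusted p = 0.00373), *Prmt2* (-0.55, adjusted p = 0.00511), *Carm1* (-0.32, adjusted p = 0.0195) and *Prmt5* (-0.26, adjusted p = 0.0160). *Prmt8* alone also passed the fold threshold (background 27.3%). *Carm1* lost this call in 8 and *Prmt5* in 7 of 14 alternatives, with library size scaling at adjusted p of 0.222 and 0.300. Without the MBD2aR181C library with the highest *Prmt8* (80.1 CPM) *Prmt8* and *Prmt7* were left.

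Levels of different genes were compared as CPM per kilobase of exon. In WT *Carm1* had the highest level per length (41.3 ± 7.14, SD, n = 3), followed by *Prmt5* (33.7 ± 2.06), *Prmt8* (23.5 ± 7.10), *Wdr77* (21.1 ± 3.21), *Prmt7* (18.7 ± 5.19), *Prmt2* (15.4 ± 2.25), *Prmt3* (12.3 ± 1.37) and *Prmt6* (8.33 ± 0.416). Neighbours in this order overlapped, except that all *Prmt5* libraries lay above *Prmt8* and all *Prmt3* libraries above *Prmt6*. With the length of the longest transcript in place of all exons, *Carm1* (49.8) and *Prmt5* (49.6) were nearly level and *Prmt7* (33.0) and *Wdr77* (32.8) came before *Prmt8* (23.5).

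Summed over the 7 enzymes, the level per length was 153 ± 6.89 in WT and 100.1 ± 3.37 in MBD3KO, 105 ± 4.74 in MBD2aFL and 98.2 ± 0.661 in MBD2t, without overlap with WT. It was 151 ± 5.72 in MBD3a, 154 ± 1.53 in MBD3dMBD, 134 ± 13.1 in MBD2a-GR and 151 ± 13.9 in MBD2aR181C. *Prmt8* made up 13.4 ± 3.85% of the sum of all 8 genes in WT and 0.900 ± 0.685% in MBD3KO, falling from the third place to the last, and *Wdr77* went from 12.2 ± 2.13% to 19.8 ± 0.694%. In MBD2t *Wdr77* had the highest level per length of the 8, overlapping *Carm1*.

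**Figure D5:**
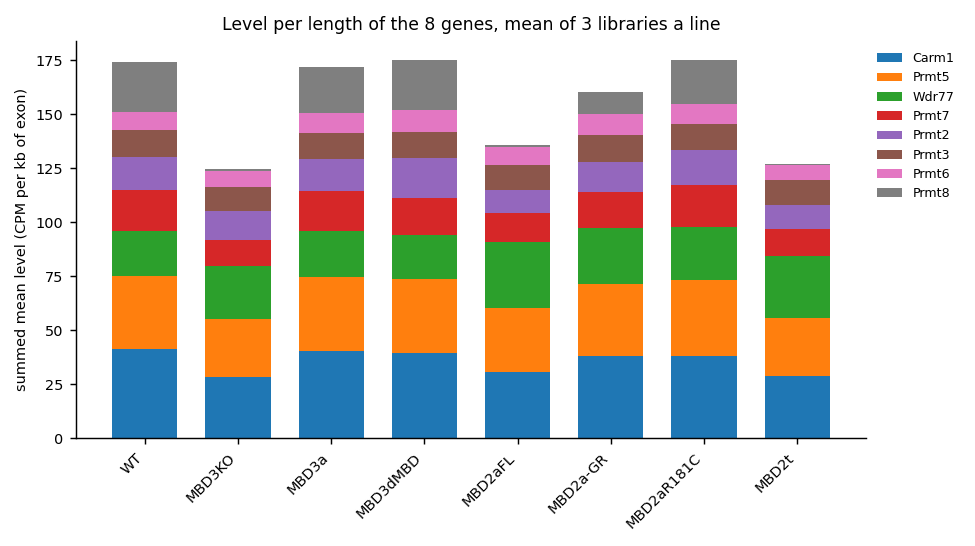
Mean level per length of the 8 genes (CPM per kb of exon, n = 3 libraries a line, stacked from 0 on the vertical axis) in the 8 lines (horizontal axis). The stack reaches 174 in WT, 125 in MBD3KO and 127 in MBD2t, and the *Prmt8* segment is hardly visible in MBD3KO, MBD2aFL and MBD2t.

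The wider pathway was described with 6 lists of genes, all read against the 60.2% of genes past the adjusted p in MBD3KO against WT. Of 10 partners and regulators of the enzymes, 5 were lower and 1 higher in MBD3KO. *Btg1*, a cofactor that binds PRMT1, passed the fold threshold at 67.6 ± 5.18 CPM against 201 ± 32.6 CPM in WT (log2 fold change -1.57, adjusted p = 1.50e-06). The median log2 fold change of the list was -0.35, against -0.03 over all genes. Of 24 substrates with GR or RGG stretches and Sm proteins, 12 were lower and 1 (*Mbd2*) higher, with a list median of -0.29. *Hnrnpa1*, an RNA-binding substrate, passed the fold threshold at 726 ± 70.0 CPM against 1491 ± 91.2 CPM (log2 fold change -1.04, adjusted p = 3.16e-06).

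Among genes for peptidyl arginine deiminases and for enzymes linked to the removal of methylarginine, all 8 tested passed. Peptidyl arginine deiminases, which convert arginine to citrulline, were higher in MBD3KO, led by *Padi1* (1.75 ± 0.790 against 0.155 ± 0.0340 CPM, log2 fold change 3.43, adjusted p = 3.04e-07), *Padi4* (5.29 ± 2.62 against 0.499 ± 0.370 CPM, log2 fold change 3.35, adjusted p = 2.03e-05) and *Padi3* (15.2 ± 11.4 against 1.91 ± 1.06 CPM, log2 fold change 2.97, adjusted p = 7.85e-05). *Padi2* and *Padi6*, the 2 other deiminase genes, were named after their values were seen and were also higher, at 33.2 and 0.418 CPM against 5.27 and 0.0749 CPM. *Jmjd6*, *Ddah1* and *Ddah2*, likewise named after their values were seen, were lower (log2 fold changes -0.78, -0.92 and -1.25). *Padi1* and *Padi6* were low in WT, where 3 reads correspond to 0.0713 to 0.0792 CPM. The deiminase genes lie in 1 stretch of chromosome 4, from base 140283270 to base 140508501 (mm9). *Padi1* shares 1200 exonic bases with a long noncoding RNA on the opposite strand. In MBD2aFL against WT 4 of the 8 were higher and 3 lower (background 27.4% and 28.1%), and in MBD2aFL against MBD2a-GR 5 were higher and 3 lower (background 34.7%). None passed in MBD3a, MBD3dMBD, MBD2a-GR or MBD2aR181C against WT.

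Of 12 genes for Tudor-domain proteins, a group that includes readers of methylarginine, 5 were higher and 4 lower in MBD3KO. The largest changes were in *Phf19* (27.9 ± 17.4 against 4.77 ± 3.06 CPM, log2 fold change 2.53, adjusted p = 0.000552), a Polycomb-associated protein, and in the piRNA pathway genes *Tdrkh* (9.42 ± 1.52 against 45.1 ± 4.99 CPM, log2 fold change -2.26, adjusted p = 6.22e-07) and *Tdrd9* (0.349 ± 0.222 against 1.53 ± 0.610 CPM, log2 fold change -2.10, adjusted p = 0.00103). Of 10 genes for supply and turnover of the methyl donor, 3 were lower and 2 higher. The 2 higher ones, *Mat1a* (0.495 ± 0.0569 against 0.0833 ± 0.100 CPM, log2 fold change 2.46) and *Gnmt* (1.096 ± 0.395 against 0.343 ± 0.124 CPM, log2 fold change 1.63), were low in both lines, and *Mat2a*, which makes the donor outside the liver, had 217 ± 16.6 against 235 ± 49.7 CPM (adjusted p = 0.459). Neither of 2 further arginine methyltransferase genes, *Prmt9* and *Ndufaf7*, passed.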

How the data were processed

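The deposited values are whole-number counts of reads per gene that the authors made from poly(A) RNA-seq by trimming (Trim Galore), alignment to mm9 (STAR) and counting with QuasR, not normalized. The strand setting is not given in the sources used here. There were 0 columns of other series. These counts were analysed in edgeR 4.0.16 (R 4.3.3): filterByExpr removed genes of low count, TMM set the scale, and 1 quasi-likelihood model with line as its factor took in all 24 libraries. Calls needed an adjusted p under 0.05, and those past the fold threshold also an absolute log2 fold change above 1. Log2 CPM used a prior count of 1. Levels per length used CPM divided by the union of exons. The procedure was tested on simulated data. Alternatives were RLE, upper quartile and library size scaling, no filter, smaller fits, DESeq2 1.42.0, leaving out each library and, added after seeing the data, edgeR's legacy quasi-likelihood test. Named genes were all members, *Prmt9*, *Mbd2*, *Mbd3*, up to 3 genes of each list with the largest change past both thresholds in MBD3KO, and the 3 genes most correlated with each of the 3 most variable members. *Mat2a*, *Yipf2*, *Ovgp1* and the further genes said to be so were named after their values were seen. The members and lists were chosen with earlier results of these data known.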

Additional observations from a re-analysis of the deposited data

How the results depend on the processing

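The 9 changes of *Prmt8* past the adjusted p kept their direction and their call in all 125 alternative fits (adjusted p at most 0.0314). The 34 changes of other members kept their direction in all 471 and their call in 407. With library size alone the median over all genes rose by 0.14, 0.15 and 0.16 (log2) in MBD3KO, MBD2aFL and MBD2t against WT, and the members' changes are given relative to the TMM scale. No paired analysis was possible because the columns carry no replicate numbers.

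The number of members past the adjusted p moved by over 1.5 times as follows, and the cause was not tested. MBD2aFL against MBD2a-GR gave 1 in place of 2 with RLE or upper quartile scaling, no filter, no MBD2t, the 2 lines only and DESeq2. MBD2a-GR against MBD3KO gave 3 in place of 5 with upper quartile scaling, library size only and the 2 lines only. MBD3dMBD against MBD3KO gave 3 in place of 6 with library size only. MBD2aFL gave 3 in place of 5 with the 2 lines only, against WT and against MBD2aR181C. Leaving out each library gave 1 to 4 for MBD2aFL against MBD2a-GR, 2 to 6 against MBD2aR181C, and 0 to 1 for MBD2a-GR against WT. Over these omissions the log2 *Prmt5* to *Wdr77* ratio against WT ran from -0.066 to 0.081 for MBD3a, -0.041 to 0.106 for MBD3dMBD and -0.291 to 0.014 for MBD2aR181C, with sign changes. Library size scaling ended the call of *Prmt5* in MBD2t against WT (adjusted p = 0.102), and the fit of 2 lines ended those of *Prmt5* in MBD3KO (0.0549) and of *Carm1* and *Prmt7* in MBD2aFL (0.0724 and 0.0897). With the longest transcript the WT levels per length were 23.3 for *Prmt2*, 16.5 for *Prmt3*, 49.8 for *Carm1*, 49.6 for *Prmt5*, 11.4 for *Prmt6*, 33.0 for *Prmt7* and 32.8 for *Wdr77*.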
